A study of Mus musculus with 6 samples.

Results

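The glycolysis and hypoxia response genes described here are 40 genes of glucose uptake, glycolysis, lactate export, pyruvate entry into mitochondria and the HIF-1 pathway. They were taken from a named list and matched by symbol to the table of estimated counts, in which all 40 were found with counts, out of 54648 symbols listed and 31439 with a count in any library. The series holds 3 WT and 3 FOXO3 KO RNA-seq libraries, made from peritoneal cells of C57BL/6 mice 6 to 8 weeks old and fed standard chow. All mice, controls included, had received an injection of thioglycollate, an irritant that draws monocytes into the abdominal cavity where they mature into macrophages. The FOXO3 KO mice are homozygous for a knockout of the transcription factor FOXO3, for which no restriction to a cell type is given, and per the study both sexes were used. The cells were pelleted without a sorting step, so each library is a mixture that is mostly macrophages. The labels do not say whether each library is 1 mouse, so the p-values measure the spread between these libraries, which may in part be technical.

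Glycolysis splits glucose into pyruvate in the cytosol, and the cell then either reduces pyruvate to lactate, which is exported, or passes it into mitochondria for oxidation by pyruvate dehydrogenase. HIF-1 is a transcription factor made of an oxygen-labile subunit, encoded by Hif1a, and a stable partner, encoded by Arnt. In oxygen, prolyl hydroxylases mark the labile subunit and the VHL protein directs it to destruction. In hypoxia it persists and binds sites with letters such as ACGTG at the promoters of glycolytic genes, Vegfa and other targets. Macrophages are known for raising glycolysis and HIF-1 activity when activated by inflammatory signals, and FOXO factors, which bind GTAAACA, are known for acting on genes of glucose metabolism such as Pdk4.

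The 250 bases before the transcription start were read from RefSeq (GRCm38.p6) for 38 of the 40 genes, and Slc2a3 and Ndrg1 had no entry. The letters ACGTG, or CACGT on the other strand, stood in the window of 20 of the 38 genes (52.6%), compared with 18.5% of all 27025 genes with a window. Counted by window, since a gene can have several starts, they stood in 23 of 53 windows (43.4%) and in 16.6% of all 32851 windows. Where they form CACGTG, the E-box bound by other factors, both strands match at once, and 5 of the genes had one (13.2%, compared with 6.86% of all genes). GTAAACA, or TGTTTAC on the other strand, stood in the window of 1 gene, Aldoc (2.63%, compared with 3.54% of all genes). A match is a description of the letters and not a site of binding. The list was made of glycolysis and hypoxia response genes, known HIF targets among them, and the background was not matched for base composition. The shares thus describe the list and not an effect of FOXO3. Windows holding ACGTG or CACGT are shown for 5 genes whose expression values in WT and FOXO3 KO libraries did not overlap. That of Slc2a6 is shown because it had the smallest p-value, and it holds neither run of letters. Gapdh and Eno1, whose groups did not overlap either, also held neither in their windows and are not shown. Genes whose groups overlapped, such as Ldha, Slc2a1, Vegfa and Hk2, held the letters too and are not shown. No other form of the HIF site was searched for. Capitals mark ACGTG or CACGT, and each run is written 5′ to 3′ on the strand of the gene.
Hif1a, chr12:73907617-73907866, plus strand: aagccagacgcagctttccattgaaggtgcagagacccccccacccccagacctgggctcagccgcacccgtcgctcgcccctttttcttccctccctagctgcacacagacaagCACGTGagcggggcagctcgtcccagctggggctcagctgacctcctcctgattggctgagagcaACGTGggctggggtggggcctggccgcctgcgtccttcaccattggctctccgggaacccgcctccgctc
P4ha1, chr10:59323046-59323295, plus strand: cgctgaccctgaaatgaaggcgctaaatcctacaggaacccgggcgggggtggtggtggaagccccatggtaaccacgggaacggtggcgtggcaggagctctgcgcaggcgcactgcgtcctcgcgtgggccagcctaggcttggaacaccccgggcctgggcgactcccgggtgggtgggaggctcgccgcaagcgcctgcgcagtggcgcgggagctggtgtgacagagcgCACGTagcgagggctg
Pfkfb3, chr2:11502091-11502340, minus strand: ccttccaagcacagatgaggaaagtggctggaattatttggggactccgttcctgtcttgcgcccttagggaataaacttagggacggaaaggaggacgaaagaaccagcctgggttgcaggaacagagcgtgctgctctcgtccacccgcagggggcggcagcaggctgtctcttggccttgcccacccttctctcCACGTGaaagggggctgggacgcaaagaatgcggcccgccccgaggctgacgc
Pgk1, chrX:106186850-106187099, plus strand: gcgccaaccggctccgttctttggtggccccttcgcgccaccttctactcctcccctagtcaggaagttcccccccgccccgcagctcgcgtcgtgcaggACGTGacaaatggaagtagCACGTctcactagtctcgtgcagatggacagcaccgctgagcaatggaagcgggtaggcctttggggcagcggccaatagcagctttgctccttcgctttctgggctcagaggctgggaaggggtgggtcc
Egln1, chr8:124949255-124949504, minus strand: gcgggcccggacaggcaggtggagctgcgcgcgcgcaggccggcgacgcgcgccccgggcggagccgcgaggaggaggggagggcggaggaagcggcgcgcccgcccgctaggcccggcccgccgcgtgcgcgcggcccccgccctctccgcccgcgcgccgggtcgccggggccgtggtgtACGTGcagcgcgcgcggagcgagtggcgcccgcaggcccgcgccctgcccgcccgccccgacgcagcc
Slc2a6, chr2:27027999-27028248, minus strand: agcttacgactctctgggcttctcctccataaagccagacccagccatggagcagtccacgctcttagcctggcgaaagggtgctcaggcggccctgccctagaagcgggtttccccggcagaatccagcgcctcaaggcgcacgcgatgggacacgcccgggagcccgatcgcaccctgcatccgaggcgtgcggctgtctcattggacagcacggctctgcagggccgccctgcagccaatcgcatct
The match of P4ha1 lay 16 bases before the start, and that of Egln1 68 bases before it. In Hif1a, a CACGTG began 135 bases before the start and a further ACGTG 70 bases before it. In Pgk1, the 2 matches lay 150 and 131 bases before the start, and the CACGTG of Pfkfb3 began 53 bases before it. Another window of Pfkfb3, not shown, held an ACGTG outside an E-box, 60 bases before its start.

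Expression is given as CPM (estimated counts over the library size scaled by TMM factors and put on a common base), and fold changes as log2 of FOXO3 KO over WT with their standard error (SE) from edgeR. Library totals lay between 28083572 and 36424331. Foxo3 stood at 117, 107 and 72.9 CPM in WT 1 to 3, whereas FOXO3 KO 1 to 3 had 4.71, 104 and 4.28 CPM. The library labelled FOXO3 KO 2 thus held Foxo3 at the WT level, and the counts of genes and the fold changes of genes given in each library are given with and without it. The log2 fold change of Foxo3 was -1.40 (SE 1.22, edgeR adjusted p = 0.859) over the 6 libraries and -4.46 (SE 0.29, adjusted p = 0.105) without FOXO3 KO 2. WT 3 stood apart as well, with a Pearson correlation across genes of 0.929 to 0.956 with the other libraries, which correlated with each other at 0.986 to 0.994. Xist, expressed from the inactive X chromosome of females, was at 869 CPM in WT 3 and 1127 in FOXO3 KO 3 and at most 0.18 in the other 4 libraries. Macrophage markers (12 of 12 tested) summed to between 14254 and 19554 CPM and were present in every library. B cell markers (8 of 8 tested) summed to 810 to 5782 CPM in WT and 365 to 1380 in FOXO3 KO libraries, mast cell markers (5 of 5) to 84.0 to 572 and 62.2 to 202, and T cell markers (7 of 7) to 26.7 to 115 and 17.6 to 44.3, with WT 3 the highest for each. Neutrophil markers (7 of 12 tested, with Ly6g, Mpo, Elane, Ngp and Camp under 0.5 CPM in every library) summed to 134 to 209 CPM in WT and 216 to 484 in FOXO3 KO libraries, and those of mesothelial cells and fibroblasts (8 of 9 tested, with Msln under 0.5) to 42.6 to 76.8 and 96.7 to 495. Red blood cell markers (5 of 5 tested) summed to 9.63 to 26.9 CPM in WT and to 117, 9.22 and 182 in FOXO3 KO 1 to 3, and dendritic cell markers (6 of 6) to 46.3 to 170 and 55.3 to 99.1, with WT 3 the highest. Those of NK cells (4 of 4) summed to 10.7 to 22.7 and 15.1 to 17.9, and those of eosinophils (1 of 3 tested, with Prg2 and Epx under 0.5) to 8.92 to 38.6 and 22.9 to 56.5. The part of these cells in the values below was not tested, and in bulk RNA fewer cells of a type cannot be told apart from less RNA per cell.

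None of the 40 genes differed by more than 1.5 times at an FDR of 0.05 in the quasi-likelihood fit of edgeR, with FOXO3 KO 2 or without it, and neither did any other gene (background 0% in both fits). Of the genes, 39 passed the filter on low counts and Pdk4 did not, whereas all 40 passed without FOXO3 KO 2. At an unadjusted p under 0.05, Slc2a6, Hif1a and P4ha1 were higher in FOXO3 KO libraries (3 of 39, 7.69%, where 4.04% of 15608 genes tested were) and 0 genes were lower (background 1.65%). Without FOXO3 KO 2, these were Slc2a6 and Hif1a (2 of 40, where 3.05% of 16217 genes were), with 0 lower (background 1.26%). With DESeq2, Slc2a6 passed over the 6 libraries (1 of 39, background 0.916% higher and 0.0403% lower), and 0 of 40 passed without FOXO3 KO 2 (background 0.377% and 0.126%). The adjusted p of edgeR lay between 0.714 and 0.994 for these genes over the 6 libraries. With 3 libraries against 3, an exact permutation test cannot give a p under 0.1, and with 3 against 2 none under 0.2.

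The groups did not overlap for 8 of the 39 genes, all higher in each FOXO3 KO library than in each WT library (20.5%, where 7% of all genes tested were). These were Slc2a6, Pfkfb3, Gapdh, Pgk1, Eno1, Hif1a, Egln1 and P4ha1, and 0 genes lay lower without overlap (background 5.36%). Without FOXO3 KO 2, the number was 9 of 40 (background 11%), with Hk1 and Pfkp added and Pgk1 lost, and 0 were lower (background 9.3%). Without WT 3, the same 8 genes did not overlap, where 14.2% of genes were higher without overlap, and 0 lay lower (background 10.9%). The share of these genes was thus 20.5%, 22.5% and 20.5% in the 3 comparisons, above the background in each, with the smallest gap where WT 3 was left out. The 3 comparisons share libraries and are not independent. Apart from rescaling, leaving a library out cannot make separate groups overlap. WT 3 was also the lowest library for all 8 genes, so the comparison without it could not have removed them. With WT 3 and FOXO3 KO 2 both left out, 10 of 39 were higher without overlap (background 19.8%), and Ldhb and Ndrg1 lay lower without overlap. The share of all genes that lay lower in that setting was not counted, so these 2 genes have no background to be read against. The summed markers of neutrophils and those of mesothelial cells and fibroblasts were also higher in each FOXO3 KO library than in each WT library, and their part in these genes was not tested.

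Most of the fitted log2 fold changes were small and positive. They were above 0 for 35 of 39 genes, where 48.8% of all genes tested were, with a median of 0.19 compared with -0.01 over all genes. Without FOXO3 KO 2 the number was 34 of 40 (background 47.6%) with a median of 0.12, and without WT 3 it was 32 of 39 (background 50.7%) with a median of 0.11. With both libraries left out, 29 of 39 were above 0 (background 48.5%) with a median of 0.05. The genes are not independent of each other and no test was made over them. Within the 4 libraries with Xist near 0, the mean of log2(CPM + 0.5) was higher in FOXO3 KO for 33 of 39 genes (47.5% of all genes) with a median difference of 0.16 (-0.01 over all genes). FOXO3 KO 2 is among these 4, and with FOXO3 KO 1 alone against WT 1 and WT 2 the number was 32 of 39 (48.7% of all genes) with a median of 0.16. Between WT 3 and FOXO3 KO 3, it was 33 of 39 (50.5% of all genes) with a median difference of 0.47 (0.01 over all genes).

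WT 3 was the lowest of the 6 libraries for 31 of the 39 genes (79.5%, where 37.6% of all genes were lowest there), and it was the highest for 3 genes, Slc2a3, Aldoc and Ddit4 (background 37.1%). The 17 enzymes from the hexokinases to lactate dehydrogenase summed to 6701, 7012 and 3998 CPM in WT 1 to 3, whereas the sums of FOXO3 KO 1 to 3 were 7817, 7281 and 6302 CPM. The groups overlapped in this sum, since FOXO3 KO 3 lay below WT 1 and WT 2, and WT 3 was far below the rest. WT 3 is also the library where B cell markers summed to 5782 CPM, and the part of these cells in its low values was not tested. In the map of the genes by library, the WT 3 column is the lowest for most rows, those of Slc2a6 and Hif1a included. The rows of the genes without overlap, among them Slc2a6 and Hif1a, also split between the groups.

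**Figure D1:**
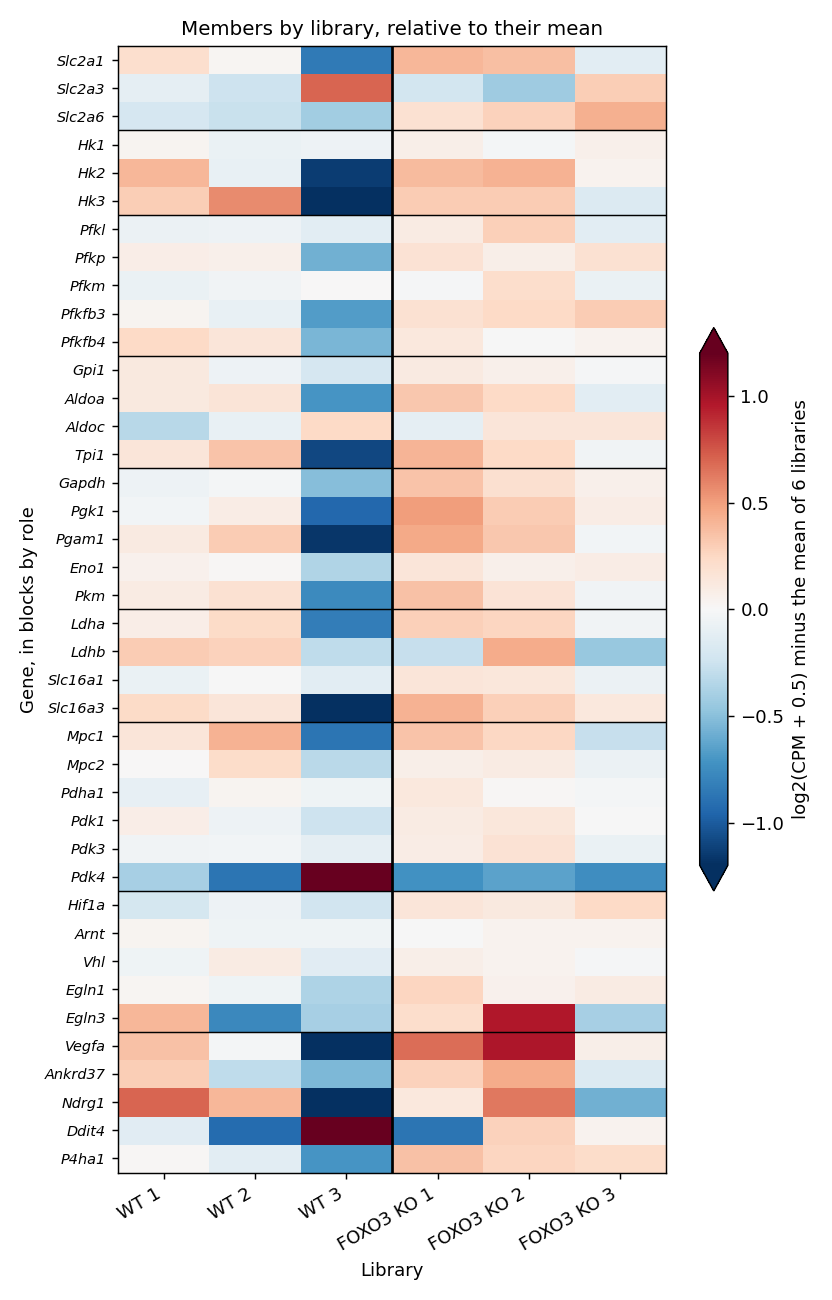
Colour map of the 40 genes (rows, in blocks by role) in the 6 libraries (columns, WT left of the thick line), with colour giving log2(CPM + 0.5) minus the mean over the 6 libraries. WT 3 is lowest for 31 of the 39 genes tested, and Slc2a6 and Hif1a are higher in each FOXO3 KO library than in each WT library.

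Of the glucose transporters, Slc2a6, which encodes GLUT6, differed most between the groups. It was at 48.7, 46.7 and 42.1 CPM in WT 1 to 3 and at 63.8, 68.3 and 75.7 CPM in FOXO3 KO 1 to 3. The groups did not overlap, and the means were 45.9 ± 3.38 (SD, n = 3) in WT and 69.3 ± 6.04 (SD, n = 3) in FOXO3 KO. The log2 fold change was 0.60 (SE 0.11), with an adjusted p of 0.714 in edgeR and 0.0138 in DESeq2. Without FOXO3 KO 2 it was 0.61 (SE 0.14, adjusted p = 0.793 with edgeR and adjusted p = 0.262 with DESeq2), and without WT 3 it was 0.55. Slc2a1, which encodes GLUT1, the carrier for basal glucose uptake, was at 107, 94.8 and 51.8 CPM in WT 1 to 3 and at 123, 120 and 85.8 in FOXO3 KO 1 to 3. The groups overlapped, with FOXO3 KO 3 below both WT 1 and WT 2, and the log2 fold change was 0.37 (SE 0.29) over the 6 libraries, 0.30 without FOXO3 KO 2 and 0.13 without WT 3. Slc2a3, which encodes the high-affinity carrier GLUT3, was highest in the libraries where Slc2a1 was lowest, with 25.8 CPM in WT 3, 19.5 in FOXO3 KO 3 and 11.6 to 14.6 in the other 4 libraries, and its log2 fold change was -0.27, or -0.11 without FOXO3 KO 2.

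The hexokinases, which trap glucose in the cell as glucose 6-phosphate, overlapped between the groups. Hk2, the inducible form, was at 120, 85.1 and 40.8 CPM in WT 1 to 3 and at 118, 122 and 93.6 in FOXO3 KO 1 to 3. Only WT 3 lay outside the range of the rest by a wide margin, and the log2 fold change was 0.44 (SE 0.37), or 0.37 without FOXO3 KO 2 and 0.13 without WT 3. Hk3, the form typical of myeloid cells, was at 480, 580 and 158 CPM in WT and 486, 483 and 351 in FOXO3 KO libraries, and its log2 fold change was 0.11 (SE 0.46), or 0.04 without FOXO3 KO 2 and -0.26 without WT 3. Hk1, the widely expressed form, varied little, between 104 and 116 CPM in all libraries.

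Among the phosphofructokinases, which catalyse the committed step, and the PFKFB enzymes, which set the level of their activator fructose 2,6-bisphosphate, Pfkfb3 had the clearest separation. It was at 119, 108 and 72.3 CPM in WT 1 to 3 and at 131, 137 and 143 in FOXO3 KO 1 to 3. The groups did not overlap, and its log2 fold change was 0.46 (SE 0.19, edgeR adjusted p = 0.839), the same without FOXO3 KO 2 (SE 0.24), and 0.28 without WT 3. Pfkfb4 was between 50.4 CPM (WT 3) and 87.2 (WT 1) with a log2 fold change of 0.08, which was 0.11 without FOXO3 KO 2 and -0.12 without WT 3. The subunit genes Pfkl, Pfkp and Pfkm had log2 fold changes of 0.18, 0.26 and 0.09, or 0.08, 0.29 and -0.0089 without FOXO3 KO 2, and their groups overlapped over the 6 libraries. The other enzymes of the first part of the pathway, Gpi1, Aldoa, Aldoc and Tpi1, had log2 fold changes of 0.10 to 0.29, or 0.07 to 0.28 without FOXO3 KO 2, and their groups overlapped.

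The enzymes of the second part of glycolysis, which yields ATP and pyruvate, had a median log2 fold change of 0.38, or 0.35 without FOXO3 KO 2. The groups did not overlap for 3 of the 5 genes, where 7% of all genes tested were higher without overlap. For Pgk1 and Eno1 the margin was small. Gapdh, whose product oxidises glyceraldehyde 3-phosphate, was at 983, 1011 and 722 CPM in WT 1 to 3 and at 1298, 1173 and 1074 in FOXO3 KO 1 to 3. Each FOXO3 KO library lay above each WT library, with means of 905 ± 159 (SD, n = 3) and 1182 ± 112 (SD, n = 3) and a log2 fold change of 0.38 (SE 0.20, edgeR adjusted p = 0.839), or 0.39 without FOXO3 KO 2. Pgk1, which encodes the first ATP-forming enzyme, was at 250, 272.21 and 133 CPM in WT and at 362, 316 and 272.29 in FOXO3 KO libraries. FOXO3 KO 3 and WT 2 were thus all but level. The separation was lost with the size factors of DESeq2 and when either FOXO3 KO 1 or FOXO3 KO 2 was left out. Its log2 fold change was 0.54 (SE 0.28, edgeR adjusted p = 0.839), the same without FOXO3 KO 2 and 0.29 without WT 3. Eno1, which encodes the enolase, was at 795, 775 and 597 CPM in WT and at 852, 800 and 817 in FOXO3 KO libraries. Here WT 1 lay just under FOXO3 KO 2, and the log2 fold change was 0.19 (SE 0.17, edgeR adjusted p = 0.859) or 0.21 without FOXO3 KO 2. The separation of Eno1 was lost when library sizes were not scaled and when no filter on low counts was used. Pkm, which encodes the pyruvate kinase of the last step, was at 1032, 1090 and 566 CPM in WT and at 1230, 1079 and 935 in FOXO3 KO libraries. It overlapped, as did Pgam1, and the log2 fold change of Pkm was 0.27 (SE 0.28), the same without FOXO3 KO 2, and 0.04 without WT 3. Without WT 3, the median of the 5 genes was 0.08, and all 5 log2 fold changes were still above 0.

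Lactate dehydrogenase and the lactate carriers overlapped between the groups. Ldha, which encodes the subunit that favours lactate formation, was at 708, 787 and 378 CPM in WT 1 to 3 and at 817, 803 and 652 in FOXO3 KO 1 to 3. WT 2 lay near FOXO3 KO 1 and FOXO3 KO 2, and FOXO3 KO 3 lay below both WT 1 and WT 2. The log2 fold change of 0.28 (SE 0.29) was 0.24 without FOXO3 KO 2 and 0.03 without WT 3. Slc16a3, which encodes MCT4, the lactate exporter of glycolytic cells, was at 99.6, 93.9 and 36.9 CPM in WT and at 114, 104 and 92.6 in FOXO3 KO libraries. Its log2 fold change was 0.43 (SE 0.36), or 0.42 without FOXO3 KO 2 and 0.11 without WT 3. Slc16a1, which encodes MCT1, varied between 17.5 and 21.3 CPM. Ldhb, which encodes the subunit that favours use of lactate, was at 19.1, 18.7 and 12.3 CPM in WT and at 12.6, 21.0 and 11 in FOXO3 KO libraries. Its 2 FOXO3 KO libraries low in Foxo3 were level with WT 3, and its log2 fold change was -0.17 (SE 0.30) over the 6 libraries and -0.50 (SE 0.25, edgeR adjusted p = 0.994) without FOXO3 KO 2.

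The genes that carry pyruvate into mitochondria and control its oxidation overlapped between the groups over the 6 libraries. The carrier subunits Mpc1 and Mpc2, the pyruvate dehydrogenase subunit Pdha1 and the inhibitory kinases Pdk1 and Pdk3 had log2 fold changes of 0.05 to 0.15, or 0.02 to 0.12 without FOXO3 KO 2, and Mpc1 ranged from 55.8 CPM in WT 3 to 138 in WT 2. Pdk4, an inhibitory kinase that is a known FOXO target in other tissues, was at 0.44, 0.18 and 12.5 CPM in WT 1 to 3, and FOXO3 KO 1 to 3 had 0.25, 0.29 and 0.24 CPM. In counts, WT 3 had 447 and the other 5 libraries 5 to 16, so the gene was detected at more than a trace in WT 3 only. It failed the filter over the 6 libraries, and the log2 fold change of -4.14 (SE 2.12, edgeR adjusted p = 0.994) without FOXO3 KO 2 rests on WT 3. WT 1 and WT 2 lay on either side of the FOXO3 KO libraries.

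Within the HIF-1 pathway, Hif1a had the second smallest p-value of the genes. Its values were 157, 174 and 154 CPM in WT 1 to 3 and 201, 196 and 214 CPM in FOXO3 KO 1 to 3. The groups did not overlap, with means of 162 ± 10.5 (SD, n = 3) and 204 ± 9.22 (SD, n = 3), and WT 3 was the lowest library by a small margin, next to WT 1. The log2 fold change was 0.33 (SE 0.10, edgeR adjusted p = 0.747), 0.36 (SE 0.14, adjusted p = 0.994) without FOXO3 KO 2 and 0.31 without WT 3. Its partner Arnt was at 78.7 to 84.4 CPM and Vhl at 31.2 to 36.9 CPM in the 6 libraries, with log2 fold changes of 0.05 and 0.06, both with and without FOXO3 KO 2. Egln1, which encodes the main prolyl hydroxylase PHD2 and is itself a HIF target, was at 62.3, 59.1 and 47.1 CPM in WT and at 73.4, 63.5 and 65.4 in FOXO3 KO libraries. The groups did not overlap by a small margin between WT 1 and FOXO3 KO 2, and the log2 fold change was 0.26 (SE 0.13, edgeR adjusted p = 0.839), or 0.31 without FOXO3 KO 2. Egln3, which encodes the inducible hydroxylase PHD3, was at 30.2, 13.1 and 17.1 CPM in WT and at 26.3, 44.8 and 17.1 in FOXO3 KO libraries. It was highest in FOXO3 KO 2, and its log2 fold change of 0.54 (SE 0.44) became 0.11 without that library.

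The other hypoxia response genes differed among themselves. P4ha1, which encodes the catalytic subunit of the collagen prolyl hydroxylase, was at 94.5, 86.1 and 57.4 CPM in WT 1 to 3 and at 120, 112 and 109 in FOXO3 KO 1 to 3. The groups did not overlap, with means of 79.3 ± 19.5 (SD, n = 3) and 114 ± 5.31 (SD, n = 3). The log2 fold change was 0.52 (SE 0.19, edgeR adjusted p = 0.839), 0.53 (SE 0.24, adjusted p = 0.994) without FOXO3 KO 2 and 0.34 (SE 0.08) without WT 3. P4ha1 is on chromosome 10, as are Foxo3 itself and, of the genes described, Hk1, Pfkl and Ddit4. The groups overlapped for Hk1, Pfkl and Ddit4 over the 6 libraries, and a part of chromosome position in these values was not tested. Vegfa, which encodes the vascular growth factor, was at 85.2, 65.7 and 15.9 CPM in WT and at 106, 131 and 69.9 in FOXO3 KO libraries. FOXO3 KO 3 lay between WT 2 and WT 1, and the log2 fold change of 0.88 (SE 0.59), the largest of the 39 genes, was 0.67 without FOXO3 KO 2 and 0.45 without WT 3. Ddit4, which encodes REDD1, an inhibitor of mTORC1 and also a known FOXO target, was at 5.98, 3.24 and 21.2 CPM in WT and at 3.36, 8.09 and 6.82 in FOXO3 KO libraries. The high value of WT 3 set its log2 fold change of -0.74 (SE 0.72), which was 0.41 without that library and -0.99 without FOXO3 KO 2. Ndrg1, a stress response gene, was at 79.1, 64.1 and 19.7 CPM in WT and at 53.0, 75.4 and 32.4 in FOXO3 KO libraries, and Ankrd37, a small ankyrin repeat gene induced by HIF-1, lay between 21.6 and 43.4 CPM. Their log2 fold changes were -0.02 and 0.35, or -0.35 and 0.21 without FOXO3 KO 2.

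**Figure D2:**
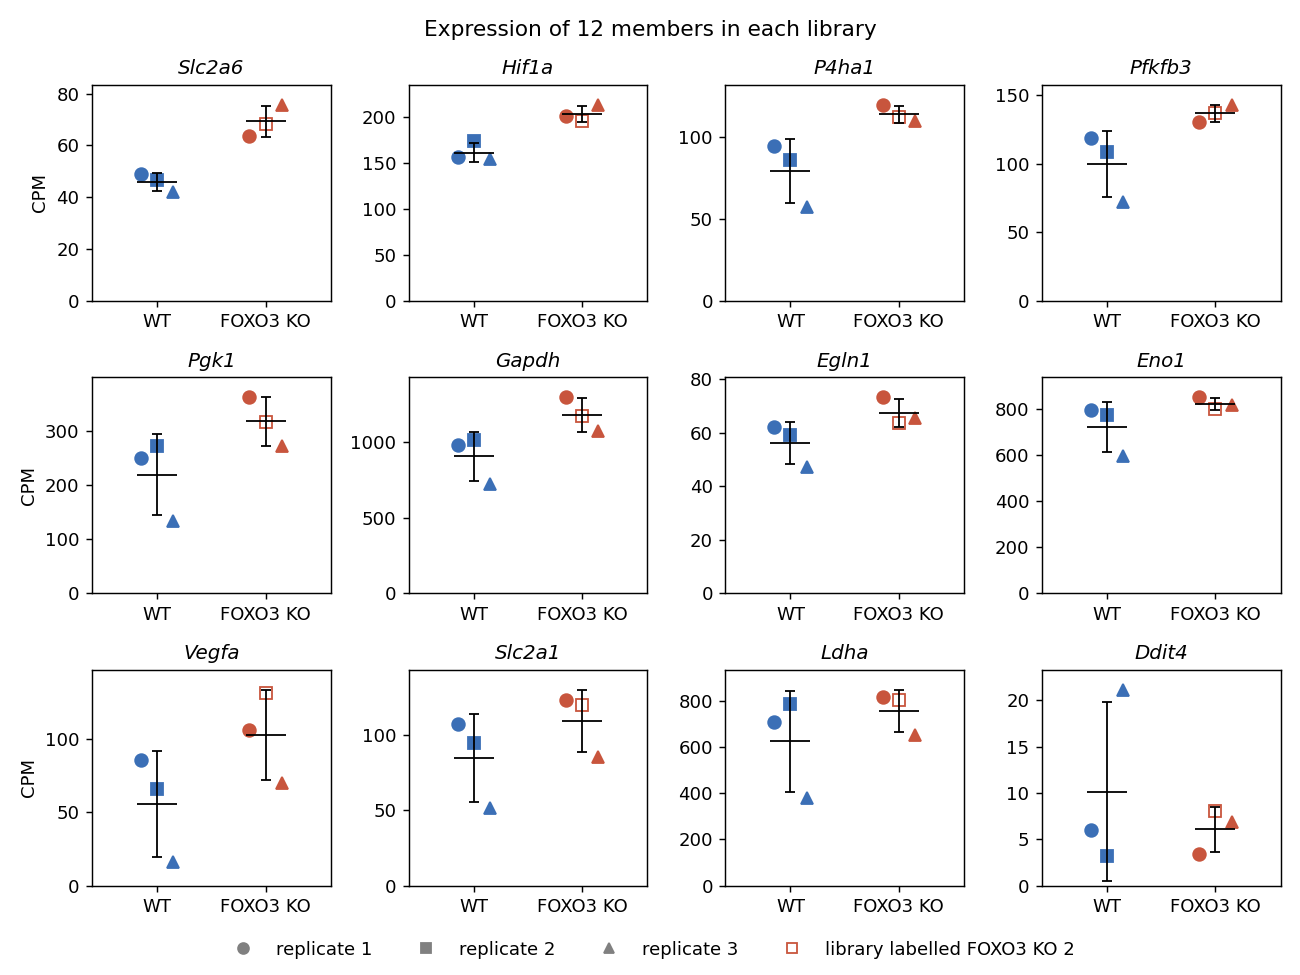
CPM (vertical axes, from 0) of 12 genes in the WT and FOXO3 KO libraries, with 1 point per library shaped by replicate number, an open square for the library labelled FOXO3 KO 2, and bars at the mean ± SD (n = 3). The groups do not overlap for the first 8 panels, from Slc2a6 to Eno1, and WT 3 is far from the other WT libraries for Vegfa, Ldha and Ddit4.

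**Figure D3:**
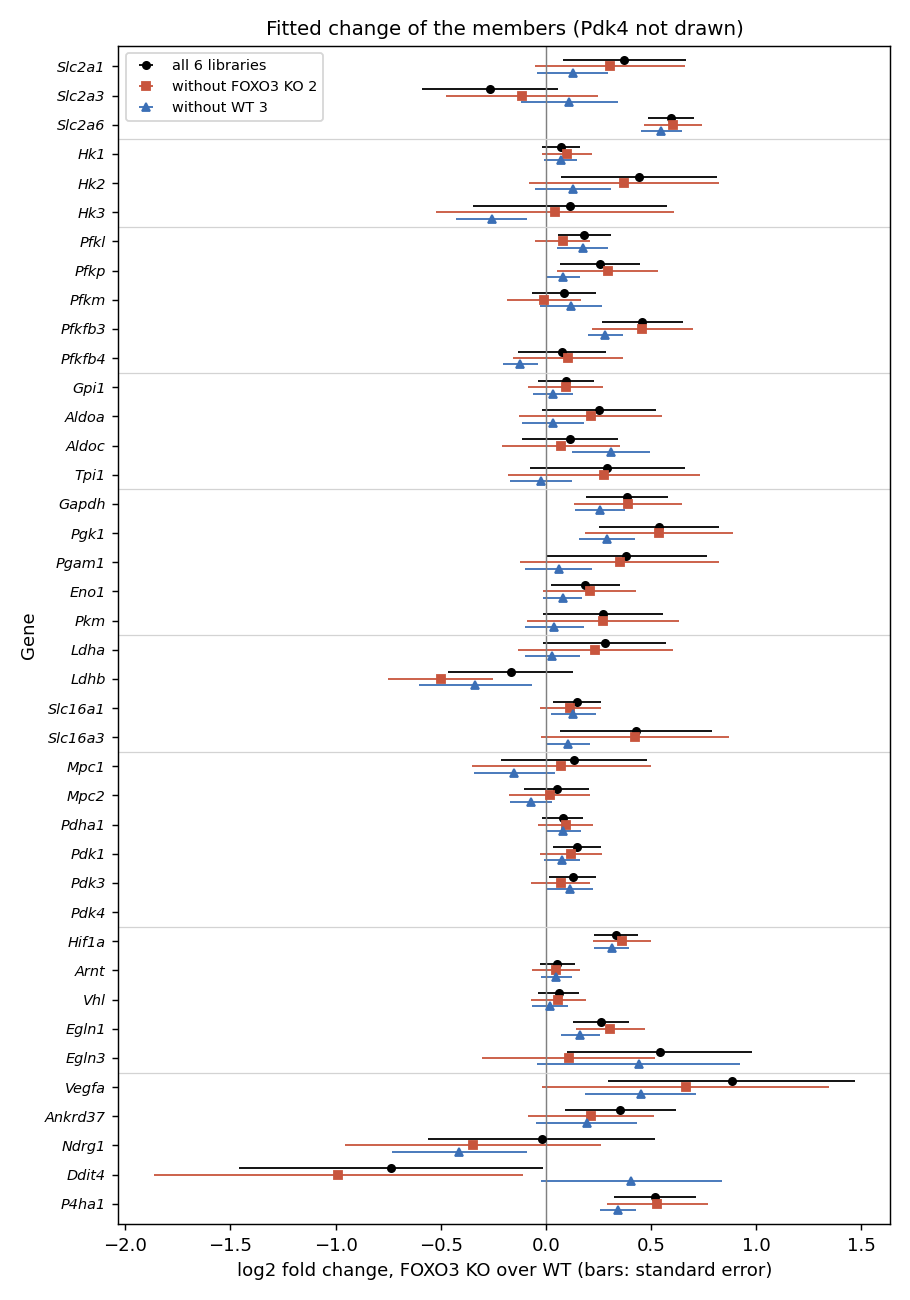
Fitted log2 fold change of FOXO3 KO over WT (horizontal axis) with its standard error for 39 genes, over all 6 libraries (black), without FOXO3 KO 2 (red) and without WT 3 (blue). Slc2a6 and Hif1a keep nearly the same value in all 3 fits, whereas Vegfa, Hk2 and Ldha lie nearer to 0 without WT 3 and Ddit4 crosses 0.

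With a term for the Xist split in the model of all 6 libraries, FOXO3 KO 2 included, 9 of 39 genes had an unadjusted p under 0.05 (background 5.44% higher), among them Slc2a1, Gapdh, Pgk1 and Vegfa, 0 were lower at that p (background 4.85%), and 0 passed the FDR. With WT 3 and FOXO3 KO 2 both left out, Slc2a6, Pfkfb3, Hif1a and P4ha1 were higher at an unadjusted p under 0.05 (4 of 39, background 5.49%), and Ldhb and Ndrg1 were lower (2 of 39, background 3.39%).

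A wider list held 85 genes, of which 74 were tested, and 0 passed the FDR with edgeR. It joined 40 other hypoxia pathway genes, 36 genes of other glycolysis isozymes, glycogen and the pentose phosphate pathway, and 9 other pyruvate dehydrogenase genes. Log2 fold changes were above 0 for 45 of the 74 (background 48.8%). Without FOXO3 KO 2 this number was 47 of 74 (background 47.6%), and without WT 3 it was 37 of 74 (background 50.7%). With both libraries left out it was 31 of 72 (background 48.5%). The parts of the list differed. Of the 37 hypoxia pathway genes tested, 24 were above 0 with a median of 0.19. This median was 0.16 without FOXO3 KO 2, 0.07 without WT 3 and -0.01 without both. In the part with glycolysis, glycogen and pentose phosphate genes, 16 of 28 were above 0 with a median of 0.05. For the pyruvate dehydrogenase genes it was 5 of 9 with a median of 0.01. Of the 74, 7 were higher without overlap between the groups (background 7%) and 1 was lower (background 5.36%). Those higher were 6 of the 37 hypoxia pathway genes and 1 of the 28 glycolysis, glycogen and pentose phosphate genes. Without FOXO3 KO 2, 7 of the 74 were higher (background 11%) and 6 lower (background 9.3%). Without WT 3, 13 were higher (background 14.2%) and 9 lower (background 10.9%). At an unadjusted p under 0.05, 3 of 74 were higher, among them Plod2 and Fam162a, close to the background of 4.04%, and 0 were lower (background 1.65%). Without FOXO3 KO 2, Plod2 alone of the 74 was higher (background 3.05%). Plod2, which encodes a collagen lysyl hydroxylase, was at 2.77, 2.43 and 1.42 CPM in WT and at 4.18, 9.48 and 6.37 in FOXO3 KO libraries, with a log2 fold change of 1.6 (SE 0.40, adjusted p = 0.714 with edgeR and adjusted p = 0.0249 with DESeq2). Without FOXO3 KO 2 it was 1.26 (SE 0.40, adjusted p = 0.994 with edgeR and adjusted p = 0.405 with DESeq2). Plod2 was low in level and highest in FOXO3 KO 2, the library where markers of mesothelial cells and fibroblasts were also highest, at 495 CPM, and the part of those cells in it was not tested. Fam162a, a mitochondrial HIF-1 target, was at 17.3, 18.0 and 16.4 CPM in WT and at 21.8, 23.7 and 20.9 in FOXO3 KO libraries (log2 fold change 0.36, SE 0.11, edgeR adjusted p = 0.731, and 0.31 without FOXO3 KO 2). Next in order of p were Pck2, the mitochondrial form of the gluconeogenic enzyme PEPCK (log2 fold change -0.75, or -0.85 without FOXO3 KO 2, edgeR adjusted p = 0.839), Angptl4, a lipoprotein lipase inhibitor (-0.63, or -0.61 without it, adjusted p = 0.839), and Mif, a cytokine gene (0.40, or 0.38 without it, adjusted p = 0.839).

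Levels were compared between genes as CPM per kb of the mean length of their protein-coding transcripts. By the mean of the 6 libraries, the order began with Gapdh at 1079 CPM per kb, Pkm at 963, Ldha at 704, Eno1 at 694 and Aldoa at 605. The ranges of neighbours in this order overlapped across libraries. Within each library, Pkm lay above Ldha and Eno1 above Aldoa, whereas Gapdh and Pkm, and Ldha and Eno1, changed places in some libraries. The order depends on the length used, since with the longest transcript it was Gapdh at 735 CPM per kb, Aldoa at 408, Pkm at 407, Eno1 at 381.1 and Ldha at 380.6. Among isozymes, Aldoa was 121 to 330 times as high as Aldoc, Ldha 26.5 to 56.2 times as high as Ldhb, Pfkl 11.4 to 13.5 times as high as Pfkm and Slc16a3 4.96 to 12.9 times as high as Slc16a1, in each of the 6 libraries. Hk3 stood above Hk1 in 5 of 6 libraries, with a median ratio of 2.10 and the lowest ratio of 0.744 in WT 3. Hk1 in turn was 2.11 to 6.11 times as high as Hk2. Of the glucose transporters, Slc2a1 was 2.15 to 11.1 times as high as Slc2a3 in each library, and Slc2a6 was 1.51 to 5.45 times as high. The order of Slc2a1 and Slc2a6, of Pfkp and Pfkl, and of Pfkfb3 and Pfkfb4 changed in some libraries when the longest transcript was used in place of the mean, so it was not resolved. Pdk1 was 1.56 to 1.86 times as high as Pdk3, and Pdk4 was at 0.09 to 6.14 CPM per kb.

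**Figure D4:**
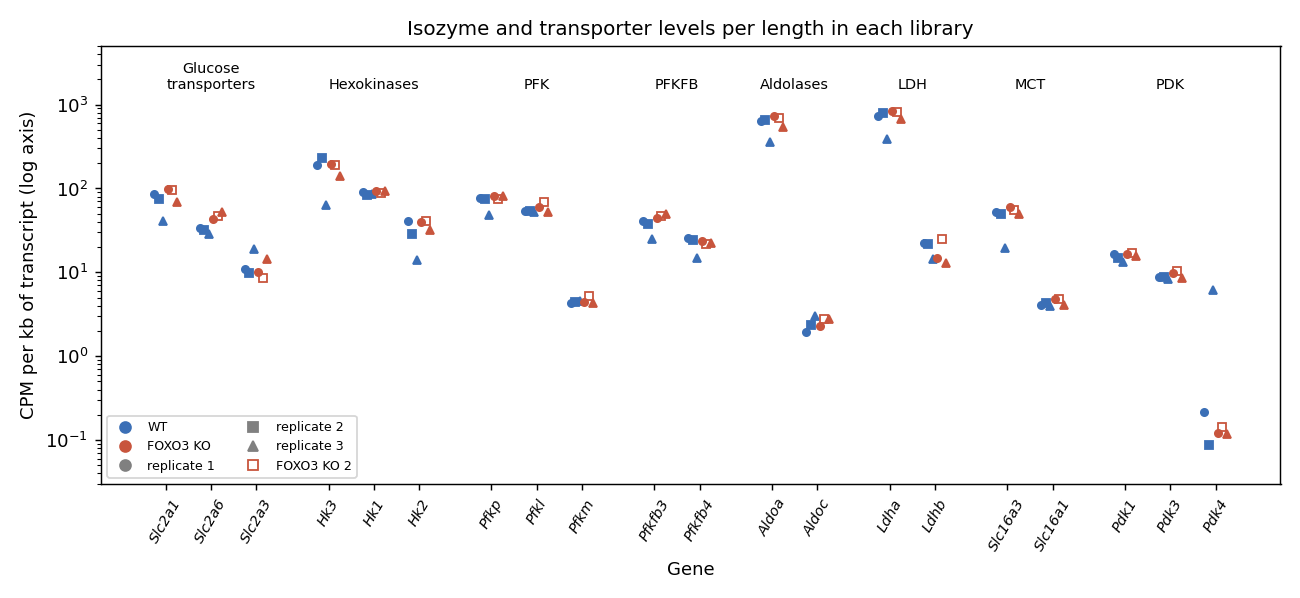
Level of transporters and isozymes in CPM per kb of mean protein-coding transcript length (vertical log axis) for each of the 6 libraries, with WT in blue, FOXO3 KO in red and an open square for FOXO3 KO 2. Aldoa, Ldha, Pfkl and Slc16a3 lie above their partners Aldoc, Ldhb, Pfkm and Slc16a1 in each library, and Pdk4 is near the foot of the axis except in WT 3.

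Some of these genes share sequence with other symbols of the table, so that reads could be divided among them in the counting. Gapdh had 77 such symbols with at least 95% identity over 300 bases, which held 17.1% to 21.0% of the combined CPM, and the ratio of means was 1.31 for Gapdh alone and 1.29 with them included. For Pgk1, 3 symbols held 10.4% to 14.2%, and the ratio was 1.45 alone and 1.42 with them. Pfkp and Pdha1 shared transcript sequence with the overlapping genes Pitrm1, which held 24.5% to 33.9% of the combined CPM, and Map3k15, which held 12.9% to 19.8%. For the other genes with copies, the copies held at most 3.92% of the combined CPM.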

How the data were processed

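RNA-seq of 6 libraries (3 WT and 3 FOXO3 KO; paired-end, 76 bp) was analysed from the table of estimated counts that the authors deposited, without normalization. The submitters' processing notes name STAR 2.6.1d, kallisto 0.46.0, DESeq2 and mm10, and the annotation they used is not given in the sources used here. Estimated counts, of which 81.4% were whole to within 0.01, were rounded for the fits. Groups were those of the labels. edgeR 4.0.16 in R 4.3.3 (filterByExpr, TMM, glmQLFit and glmQLFTest) was fitted to the whole table with p-values adjusted by Benjamini-Hochberg across the genes that passed the filter, at the study's thresholds of a fold over 1.5 and an FDR of 0.05. The study reports both increased and decreased genes past these thresholds, with 3 libraries a group. Its test may differ from edgeR, since the processing notes name DESeq2, and its counts of genes were not compared with those here. Alternatives were DESeq2 1.42.0, other scalings and filters, the replicate number as a block, a covariate for the split by Xist and libraries left out. The 40 genes, the wider lists and the tests were chosen with earlier results of these data known. Values in each library are given for genes with an unadjusted p under 0.05, for genes without overlap between the groups and for a fixed set of main enzymes and targets, and the genes with the 6 smallest p-values are named from the wider list, except 1 that is not reported here. Transcript lengths and near-identical copies (blastn 2.17.0) came from GENCODE M21 of GRCm38, and promoter windows from RefSeq. The fits were tested on simulated data. Reads carry no molecular identifiers, so counts are not independent molecules. Library totals were 28083572 to 36424331 counts. The colon, human and qPCR data of the study were not analysed here.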

Additional observations from a re-analysis of the deposited data

How the results depend on the processing

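The differences in these genes were small against the spread between libraries, 3 libraries a group limit what a test can reach, and the library labelled FOXO3 KO 2 and WT 3 weigh on most values. The cause of the differences between settings was not tested. Foxo3 had a log2 fold change of -4.46 with DESeq2 without FOXO3 KO 2 and of -4.64 with edgeR without WT 3 and FOXO3 KO 2, both past the FDR, and of -4.46 to -0.87 as each library was left out. At a fold over 1.5 and an FDR under 0.05, 166 genes passed with DESeq2, 104 with DESeq2 without FOXO3 KO 2, 4 with edgeR without both libraries, and 0 as each library was left out. Of the 40 genes, 1 (Slc2a6) passed with DESeq2 and 0 under the other settings. The count of the genes at an unadjusted p under 0.05 was 9 with the covariate for Xist (10.3% of all genes), 5 with library size alone (5.05%), 5 with no filter (5.15%), 6 without WT 3 and FOXO3 KO 2 (8.87%), of which Ldhb and Ndrg1 were lower, and 1 to 4 with each library left out (3.69% to 9.39%), the lowest without FOXO3 KO 1 and without FOXO3 KO 3. For the wider list, the count was 10 of 74 with the covariate for Xist, 9 higher and 1 lower (10.3% of all genes). Without both libraries it was 8 of 72, 2 higher and 6 lower (8.87% of all genes). With each library left out it was 1 to 8 (3.69% to 9.39% of all genes), the lowest without FOXO3 KO 2. The highest was without WT 3, with 5 higher and 3 lower. Genes higher without overlap numbered 8 to 18 with each library left out, the most without FOXO3 KO 3, while the share over all genes rose from 7% to between 10.2% and 14.3%, since fewer libraries overlap less often. The fits with the replicate block or the covariate give no such number. The median log2 fold change of the genes lay between 0.11 and 0.31 with each library left out, and a comparison added after the data were seen, WT 3 with FOXO3 KO 3, gave 0.47.

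Signs turned for some genes, none past the FDR. With each library left out in turn, or with WT 3 and FOXO3 KO 2 left out together, the log2 fold change ranged from -0.014 to 0.40 for Aldoa, -0.028 to 0.31 for Aldoc, -1.15 to 0.41 for Ddit4, -0.0020 to 0.95 for Egln3, -0.34 to 0.46 for Hk3, -0.021 to 0.48 for Ldha, -0.68 to 0.0091 for Ldhb, -0.22 to 0.41 for Mpc1, -0.11 to 0.19 for Mpc2, -0.75 to 0.36 for Ndrg1, -0.12 to 0.22 for Pfkfb4, -0.0089 to 0.15 for Pfkm, -0.51 to 0.25 for Slc2a3 and -0.043 to 0.56 for Tpi1. With the covariate for Xist, Ndrg1 was at 0.13, and with DESeq2 without FOXO3 KO 2, Pfkm was at -0.0018. The longest transcript in place of the mean put Hk3 above Hk1 in 6 of 6 libraries and, beside the pairs named above as unresolved, left the order of the isozymes as given, but it moved ratios by over 1.5 times, to 2.15 to 5.61 for Slc16a3 over Slc16a1, 1.15 to 3.34 for Hk1 over Hk2, a median of 5.61 for Hk3 over Hk1 and 3.02 to 10.9 for Slc2a6 over Slc2a3.

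The replicate numbers were not shown to pair the libraries, since the deviations of same-numbered libraries from their group means correlated at 0.34, -0.06 and 0.57 and WT 2 correlated best with FOXO3 KO 1, at 0.61. With the replicate number as a block, 6 of the genes and 6 of the wider list had an unadjusted p under 0.05 (background 3.64% higher and 2.98% lower), Ndrg1 was at 0.12, and 0 genes passed the FDR.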
